A study of Mus musculus with 6 samples.

Results

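The contactin-associated protein family of the mouse comprises the genes Cntnap1, Cntnap2, Cntnap3, Cntnap4, Cntnap5a, Cntnap5b and Cntnap5c. The members are the 7 rows whose gene symbol is one of these names, out of 55416 genes in the table of read counts. The family was taken up because the level of Cntnap3 was already known to differ between the genotypes in these same libraries. The differences of all 7 members between the genotypes are therefore given as a description: no p is printed for a member, and no count of calls among them is read as support. RNA was sequenced from the ganglionic eminences, the ventral swellings of the embryonic forebrain that give rise to striatal projection neurons and GABAergic interneurons. The embryos were at E13.5 (embryonic day). There were 3 libraries from Dlx1/Dlx2 double knockout embryos and 3 from wild-type littermates. Dlx1 and Dlx2 encode homeodomain transcription factors of ventral forebrain neurons. The alleles, the strain, the sex and any pooling of embryos are not given in the sources used here. Because those sources do not say that each library came from a separate embryo, p-values measure only the spread between these samples, which may be technical.

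Proteins of this family, also called Caspr proteins, are relatives of the neurexins. Each crosses the membrane a single time and carries laminin G and EGF-like domains outside the cell, and several bind a contactin, an adhesion protein tethered to the membrane. Cntnap1 joins contactin and neurofascin in the paranodal junction beside the node of Ranvier. Cntnap2 is known for holding Shaker-type potassium channels next to that junction together with Cntn2, and for roles in neuronal migration and interneuron function. Cntnap4 is known for its part in transmission by interneurons and dopaminergic neurons. Cntnap3 and the Cntnap5 genes are less studied. Cntnap5a, Cntnap5b and Cntnap5c are mouse paralogues.

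The coding sequences show how far the members' reads can be told apart. The last 60 coding bases, stop codon included, are shown for the longest complete coding transcript of 6 members in GENCODE M21, because they encode the intracellular end of each protein and let the members be compared by eye. Capitals mark bases that are the same as in Cntnap3 at the same distance from the end.
Cntnap2: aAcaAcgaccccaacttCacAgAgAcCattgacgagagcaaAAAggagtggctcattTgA
Cntnap3: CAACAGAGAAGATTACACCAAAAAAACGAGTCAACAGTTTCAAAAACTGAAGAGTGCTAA
Cntnap4: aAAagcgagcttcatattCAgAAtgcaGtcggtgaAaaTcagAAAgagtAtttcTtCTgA
Cntnap5a: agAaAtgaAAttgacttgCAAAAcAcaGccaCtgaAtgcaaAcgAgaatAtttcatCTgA
Cntnap5b: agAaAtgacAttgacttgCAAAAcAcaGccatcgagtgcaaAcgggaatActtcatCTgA
Cntnap5c: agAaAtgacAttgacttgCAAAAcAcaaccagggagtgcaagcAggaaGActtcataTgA

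Without gaps, the number of these 60 bases that the sequences shown share with Cntnap3 ranged from 12 in Cntnap2 to 19 in Cntnap5a. It was 17 in Cntnap4. The bases were not aligned, so this count is no measure of relatedness. Over whole coding sequences, Cntnap3 was most like Cntnap4, with 69.5% identical bases among 3834 aligned. It shared 50.9% with Cntnap1 and between 57.1% and 58.9% with the rest. The Cntnap5 genes were closest to each other, at 89.7% to 90.3% identity.

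**Figure D1:**
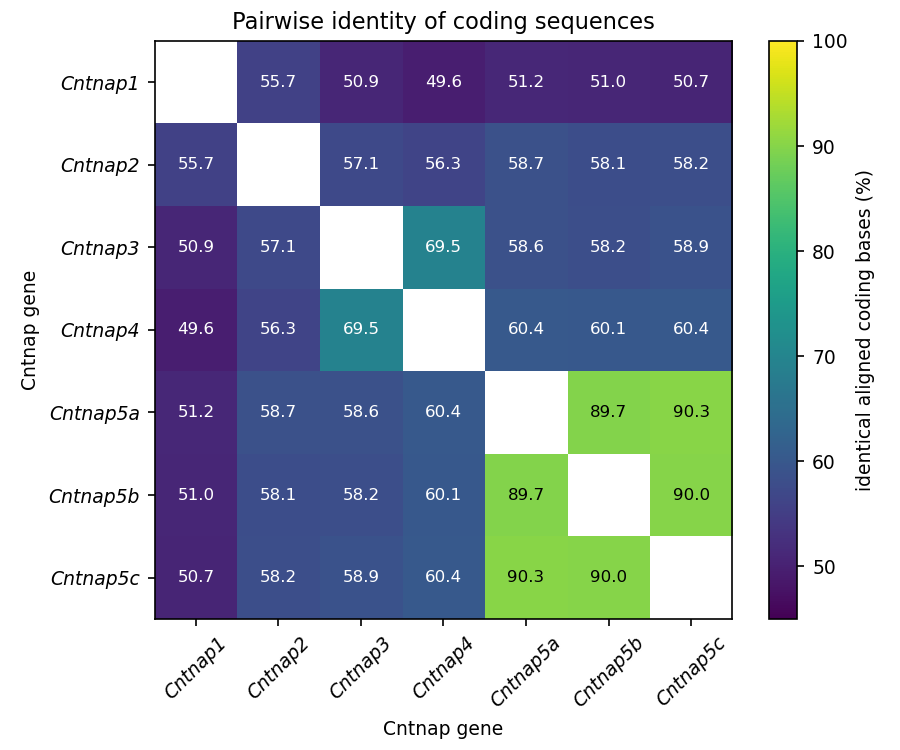
Pairwise identity of the longest complete coding sequences of the 7 Cntnap genes, as a percentage of aligned bases (colour scale and numbers). The Cntnap5 genes form a block at 89.7% to 90.3%, and Cntnap3 and Cntnap4 share 69.5%.

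At the level of reads the members were mostly distinct. Of 6337 different 50-base words in Cntnap3 transcripts, 0 occurred in another member or in another gene of the annotation. Cntnap5a, Cntnap5b and Cntnap5c had 104, 93 and 90 words in common with other members, of 10896, 5253 and 3882. The longest run shared by Cntnap5a and Cntnap5b was 91 bases, so a small share of their reads could be exchanged. Cntnap4 had 458 of 6280 words in common with Gm45904, an antisense gene whose exons overlap it by 503 bases. Cntnap1 exons overlap those of Plekhh3 on the opposite strand by 233 bases. It is not stated whether counting used strand, so the counts of Cntnap1 and Cntnap4 are uncertain in these stretches.

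Promoters of 3 of the 7 members, Cntnap2, Cntnap3 and Cntnap5b, were found in the RefSeq table of the GRCm38.p6 build. The table holds 2 windows for Cntnap2. That of Cntnap3, which differed most between the genotypes, and the first of Cntnap2, the most expressed member, are shown from 250 bases before to 50 after the annotated start. The former lies at chr13:64903839-64904138 on the minus strand and the latter at chr6:45059811-45060110 on the plus strand. Capitals mark matches to TAATT, which contains the core of homeodomain binding sites, and to the E-box sequence CAGCTG.
Cntnap3: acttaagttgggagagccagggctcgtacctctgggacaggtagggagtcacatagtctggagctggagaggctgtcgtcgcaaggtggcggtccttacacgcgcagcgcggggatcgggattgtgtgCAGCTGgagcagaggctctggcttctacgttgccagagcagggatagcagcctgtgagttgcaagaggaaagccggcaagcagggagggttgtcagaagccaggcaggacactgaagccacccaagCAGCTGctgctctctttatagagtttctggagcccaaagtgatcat
Cntnap2: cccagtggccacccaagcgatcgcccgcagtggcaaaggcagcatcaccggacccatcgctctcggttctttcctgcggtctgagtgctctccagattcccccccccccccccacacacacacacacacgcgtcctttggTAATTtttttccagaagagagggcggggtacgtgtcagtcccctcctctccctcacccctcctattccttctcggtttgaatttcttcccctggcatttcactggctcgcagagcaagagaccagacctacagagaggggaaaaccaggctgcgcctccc

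Both motifs, and TAATTA, whose matches all contain the first one, were searched on both strands. The Cntnap3 window held 0 matches to TAATT, which occurred in 27.0% of 32851 promoters of the same length. It also held 0 matches to the longer TAATTA, which 5.29% of promoters contain. It held 2 matches to CAGCTG, present in 16.3% of promoters. The Cntnap2 window shown held 1 match to TAATT and 0 to CAGCTG. The other Cntnap2 window, at chr6:47244146-47244445 on the plus strand, and the Cntnap5b window held 0 matches to all 3 motifs. Their GC content was 58.0% for Cntnap3, 59.7% and 46.3% for the first and the other window of Cntnap2, and 57.7% for Cntnap5b, so that 1 window lay below the median of 52.7% over all promoters and 3 above it.

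The libraries held 56618090 to 70114173 counts each. Levels are given in CPM, the read count scaled to a common library size, with TMM factors that allow for differences in RNA composition. The targeted genes went with the labels: wild-type libraries had 281.8 to 313.3 CPM of Dlx2 and 434.0 to 445.7 of Dlx1, and double knockout libraries had 7.50 to 10.99 and 74.9 to 94.0. All 10 marker genes fixed for the ganglionic eminence were detected, with sums of 1260 to 1329 CPM in wild-type and 832.3 to 1045 CPM in double knockout libraries. Pairs of libraries differed by more than sampling noise, with a chi-square per gene of at least 13.1. Double knockout replicate 3 stood apart in the marker lists: its pan-neuronal sum of 14 genes was the lowest of all, 5790 CPM against 6566 and 6725 CPM in the other double knockout libraries and 7016 to 7549 CPM in the wild type. Its progenitor sum of 10 genes was the highest, 3914 CPM against 3305 and 3470 CPM in the other double knockout libraries and 2831 to 3226 CPM in the wild type. Of these markers, 2 of 14 neuronal genes were called lower and 1 of 10 progenitor genes higher; without that library the counts were 2 and 3. The neuronal count was 1 with the replicate number as a block, and 0 without any other single library. Double knockout replicate 3 also stood apart in single markers of other lists, named here for their values. Nr2f2 was at 114.8 CPM there, against 338.1 and 350.8 in the other double knockout libraries and 295.0 to 355.8 in the wild type. Slc1a2 was likewise lowest there, at 142.0 CPM, while Lhx6 and Nkx2-1 were above the other double knockout libraries, at 125.4 and 230.9 CPM. What set this library apart was not tested. In whole tissue, fewer cells of a type and less RNA per cell cannot be told apart.

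All 7 members passed the filter on low counts. In the fit over 23628 tested genes, a gene is called when its p from edgeR's quasi-likelihood test, adjusted over all of them by the Benjamini-Hochberg method, is under 0.05. Of the 7 members, 2 were called, Cntnap3 and Cntnap5c, both lower in the double knockout, beside 2.68% of all tested genes called in either direction and 1.34% called lower. The groups did not overlap for 3 members, Cntnap3, Cntnap4 and Cntnap5c, all lower in the double knockout, beside 19.5% of all tested genes without overlap and 10.2% without overlap and lower. Since the family was chosen on this contrast, nothing is read from these counts. The median log2 fold change (double knockout minus wild type) was -0.24 over the 7 members and -0.0016 over all tested genes.

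**Figure D2:**
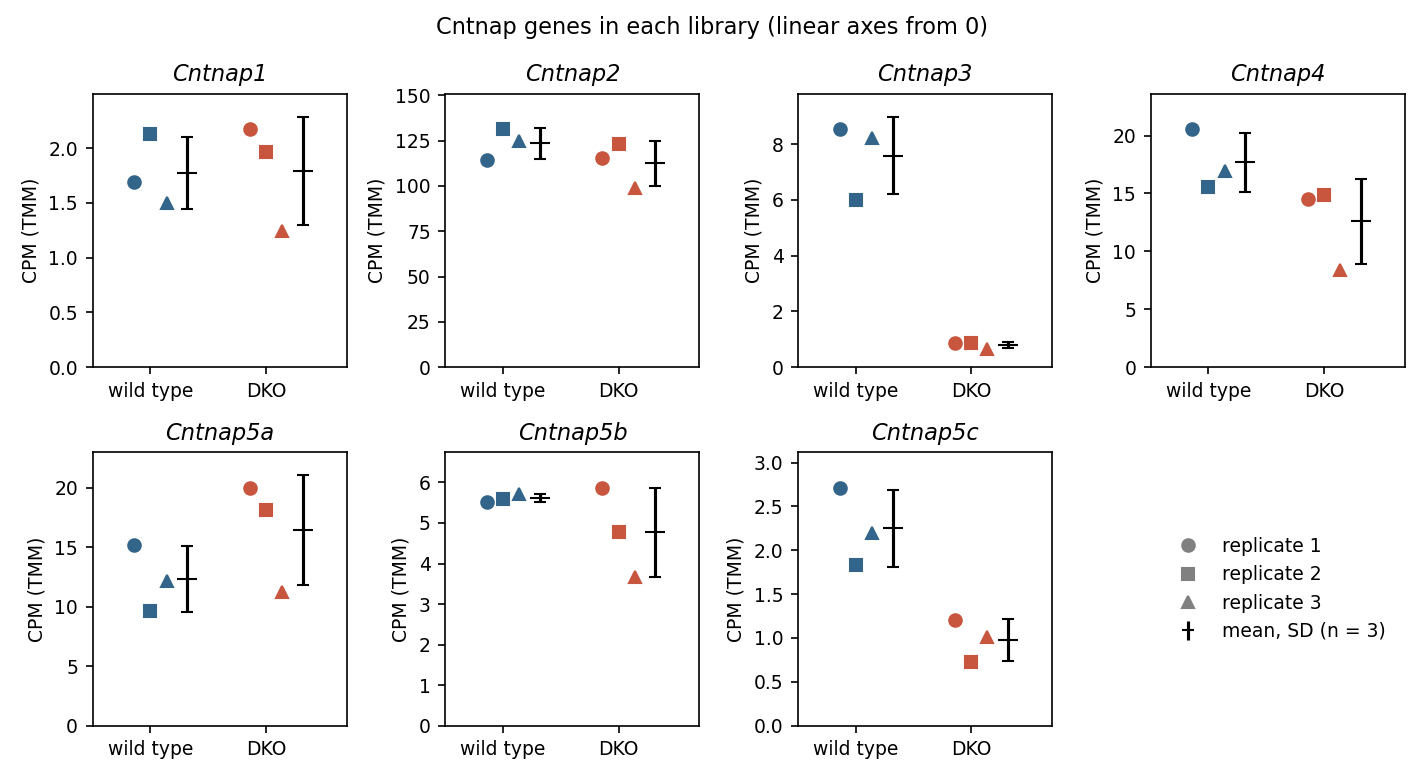
Level of each Cntnap gene in CPM (TMM-scaled, linear axes from 0) in the 3 wild-type (blue) and 3 double knockout (DKO, red) libraries. Symbols give the replicate number, and the black bar is the mean with its SD (n = 3). The groups are apart for Cntnap3, Cntnap4 and Cntnap5c, and replicate 3 is the lowest double knockout library in every panel but that of Cntnap5c.

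Cntnap3 (ENSMUSG00000033063) had the largest difference of the family. It was at 8.53, 6.01 and 8.21 CPM in wild-type replicates 1 to 3, from 500, 386 and 527 reads. In double knockout replicates 1 to 3 it was at 0.863, 0.867 and 0.663 CPM, from 56, 50 and 46 reads. The highest double knockout library was thus far below the lowest wild-type library, and the double knockout libraries lay close together. The double knockout mean was 10.5% of the wild-type mean, with single libraries at 11.4%, 11.4% and 8.74%. Its log2 fold change of -3.25 (SE 0.191) was near the bottom of the table, and only 9 of the 23628 tested genes had a lower one. Over the 14 alternative analyses it ranged from -3.39 to -3.12, the latter without double knockout replicate 3.

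The difference in Cntnap3 was also present within libraries of like Xist level. Xist, the transcript that marks an inactive X chromosome, was high in double knockout replicate 1 and wild-type replicates 2 and 3, and Y-linked genes were expressed in the other libraries. Among the libraries with high Xist the double knockout was at 12.1% of the wild type, and among those with Y-linked expression at 8.97%. Each comparison had a single library in 1 genotype, so neither has a test.

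Cntnap5c (ENSMUSG00000038048), a paralogue of the fifth family gene, had 2.71, 1.84 and 2.20 CPM in wild-type libraries and 1.202, 0.728 and 1.01 CPM in double knockout libraries. These values came from 118 to 159 reads and from 42 to 78 reads per library. Every wild-type value exceeded every double knockout value, and the double knockout mean was 43.6% of the wild type, a log2 fold change of -1.19 (SE 0.233). Over the 14 alternative analyses the log2 fold change lay between -1.36 and -1.02. Cntnap5c was called in 7 of them, and not with the Y-linked covariate or with any 1 library left out. The double knockout was at 59.6% of the wild type among libraries with high Xist and at 32.02% among those with Y-linked expression. Each comparison again had a single library in 1 genotype. The close relatives Cntnap5a and Cntnap5b have about 90.3% and 90.05% of aligned coding bases in common with Cntnap5c. They had log2 fold changes of 0.42 and -0.24.

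Cntnap5a (ENSMUSG00000070695) had 15.2, 9.61 and 12.1 CPM in wild-type libraries and 20.01, 18.2 and 11.2 CPM in double knockout libraries. The groups overlapped, because double knockout replicate 3 lay among the wild-type libraries while the other double knockout libraries were above them. This gave a log2 fold change of 0.42 (SE 0.227), and of 0.64 without double knockout replicate 3. In the libraries with high Xist the double knockout was at 184.1% of the wild type, and in those with Y-linked expression at 96.8%. The first value rests on double knockout replicate 1 alone and the second on wild-type replicate 1 alone. In the second, double knockout replicate 2 was above wild-type replicate 1 and double knockout replicate 3 below it. No dependence on Xist level is read from these values.

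Cntnap5b (ENSMUSG00000067028) had 5.53, 5.59 and 5.72 CPM in wild-type libraries, the narrowest spread of the family with a coefficient of variation of 1.75%. Double knockout libraries had 5.87, 4.77 and 3.66 CPM, where the coefficient of variation was 23.2%. The double knockout libraries lay on both sides of the wild type. Their log2 fold change was -0.24 (SE 0.166), and -0.07 without double knockout replicate 3.

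Cntnap4 (ENSMUSG00000031772), the member known from interneurons, had 20.5, 15.6 and 16.96 CPM in wild-type libraries and 14.5, 14.9 and 8.38 CPM in double knockout libraries. The groups did not overlap, but the gap between wild-type replicate 2 and double knockout replicate 2 was small. The mean was at 71.1% of the wild type and the log2 fold change was -0.49 (SE 0.208). Without double knockout replicate 3 the log2 fold change was -0.26. In libraries with high Xist, which do not include that replicate, the double knockout was at 89.3% of the wild type, and in those with Y-linked expression at 56.6%. Cntnap4 and Cntnap3 are the closest pair outside the Cntnap5 genes, yet the log2 fold change of Cntnap3 was -3.25.

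Cntnap2 (ENSMUSG00000039419), the potassium channel organiser, had 114.5, 131.3 and 124.6 CPM in wild-type libraries and 115.4, 123.4 and 98.9 CPM in double knockout libraries. The groups overlapped, and double knockout replicate 3 was the lowest library. It had a log2 fold change of -0.13 (SE 0.0852), and of -0.04 without that library.

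Cntnap1 (ENSMUSG00000017167), the paranodal member, was low, with 1.69, 2.13 and 1.496 CPM in wild-type libraries and 2.17, 1.96 and 1.24 CPM in double knockout libraries. The groups overlapped widely, with a log2 fold change of 0.01 (SE 0.241). Its sign changed in 6 of 14 alternative analyses, so no direction can be given.

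**Figure D3:**
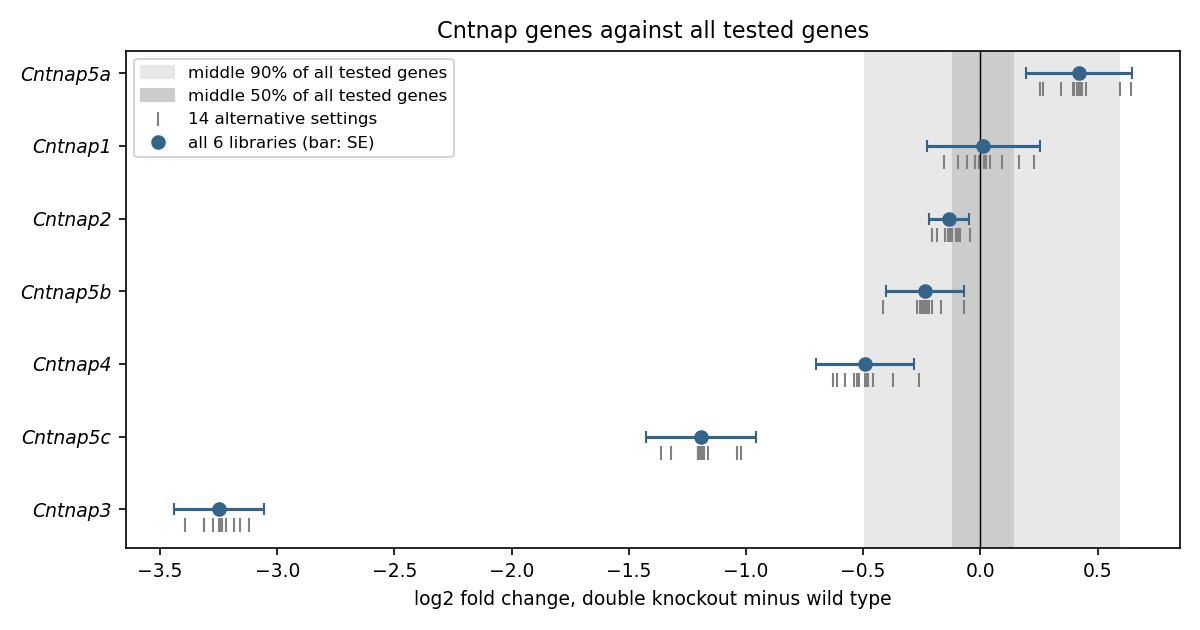
Log2 fold change of each Cntnap gene, double knockout minus wild type, with its SE (blue), and below it the values under the 14 alternative analyses (grey ticks). The grey bands hold the middle 50% (-0.12 to 0.14) and the middle 90% (-0.49 to 0.59) of all tested genes; Cntnap3 and Cntnap5c lie outside both bands in every alternative.

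Double knockout replicate 3 was the lowest of the 6 libraries for 5 of the 7 members: Cntnap1, Cntnap2, Cntnap3, Cntnap4 and Cntnap5b. The pan-neuronal marker sum was lowest in the same library, and its part in these values was not tested. The levels were therefore also expressed per 1000 CPM of the pan-neuronal sum, a measure chosen after the values were seen. This sum was itself lower in the double knockout, at 5790 to 6725 CPM against 7016 to 7549 CPM in the wild type. The scale therefore raises the double knockout percentage of every member. Cntnap3 then had values of 1.13, 0.856 and 1.12 in wild-type and 0.128, 0.132 and 0.115 in double knockout libraries, or 12.1% of the wild type on average. Cntnap5c was at 50.4% of the wild type on this scale, and its groups again did not overlap. Cntnap4 was at 80.9% and its groups overlapped, with 2.22 to 2.72 in wild-type and 1.45 to 2.26 in double knockout libraries. Cntnap1 was at 114.3%, Cntnap2 at 104.3%, Cntnap5a at 152.6% and Cntnap5b at 96.7%, all with overlap.

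The genes of the GABA-synthesising enzymes, Gad1 and Gad2, summed to 440.4 to 444.0 CPM in wild-type and 162.6 to 172.9 CPM in double knockout libraries. Per 1000 CPM of Gad1 and Gad2, a scale that was also chosen after the values were seen, Cntnap3 had values of 13.6 to 19.2 in wild-type and 3.84 to 5.33 in double knockout libraries, or 27.9% of the wild type, without overlap. Gad1 and Gad2 had log2 fold changes of -1.47 and -1.38, beside -3.25 for Cntnap3. Slc32a1, the vesicular GABA transporter gene, was at -2.85. It stands in no marker list and is named for its likeness to the Cntnap3 pattern (below). Its similar value follows from that choice, and nothing is read from it. The part of the drop in GABAergic markers in the level of Cntnap3 was not tested. Cntnap5c was at 114.9% on this scale, with overlapping groups. The denominator itself was lower in the double knockout, and each of the other 5 members had higher values there on this scale, from 189.1% for Cntnap4 to 355.4% for Cntnap5a, without overlap.

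Levels can be compared between members only per length, here as CPM per kilobase of annotated exon in GENCODE M21. The order in the wild type was led by Cntnap2, at 12.04 ± 0.825 CPM per kilobase (SD, n = 3), followed by Cntnap4 at 2.82 ± 0.408. Cntnap3, Cntnap5a and Cntnap5b followed at 1.19 ± 0.216, 1.12 ± 0.255 and 1.08 ± 0.0189, and did not differ beyond their spread. Cntnap5c was at 0.572 ± 0.112 and Cntnap1 at 0.302 ± 0.0554. Among 15195 tested protein-coding genes, the wild-type level per length of Cntnap2 was above that of 75.3% and the level of Cntnap3 above that of 26.9%. Exon lengths include untranslated parts, which need not be covered alike, so these levels are approximate.

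In the double knockout the order changed at its lower end. Cntnap2 and Cntnap4 remained first and second in every library, at 11.0 ± 1.22 and 2.004 ± 0.582 CPM per kilobase. Cntnap5a followed at 1.505 ± 0.423 and Cntnap5b at 0.916 ± 0.212. Cntnap1 and Cntnap5c were at 0.305 ± 0.0832 and 0.249 ± 0.0605, and did not differ beyond their spread. Cntnap3 was last of the 7 in all 3 double knockout libraries, at 0.125 ± 0.0183, where it had been at position 3 or 4 in each wild-type library.

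**Figure D4:**
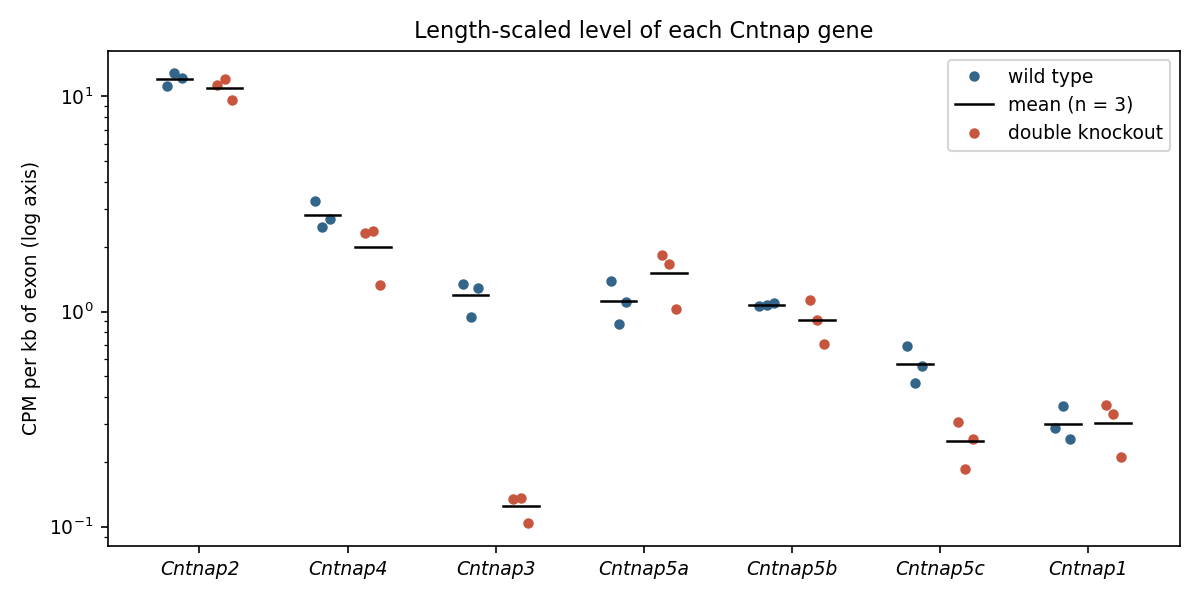
Level of each Cntnap gene per kilobase of annotated exon (CPM per kilobase, log axis) in the wild type (blue) and the double knockout (red). Points are libraries and black lines are means (n = 3). Cntnap3 sits beside Cntnap5a and Cntnap5b in the wild type and below all other members in the double knockout.

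As a share of the summed per-length level of the family, Cntnap3 made up 6.96%, 4.95% and 6.71% in wild-type and 0.779%, 0.770% and 0.782% in double knockout libraries. The share of Cntnap2 was 58.2% to 67.4% and 64.9% to 72.6%, with overlap. The summed level of the family was 19.0 to 19.2 CPM per kilobase in the wild type, 17.3 and 17.6 in double knockout replicates 1 and 2, and 13.3 in replicate 3.

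The genes with which the family's proteins act were taken from 3 lists with 49 genes in all, each of which passed the filter. Of these, 4 were called, Nrxn3, Gria1, Lgi2 and Cntn2, and all 4 were lower in the double knockout, beside 2.68% of all tested genes called in either direction and 1.34% called lower. DESeq2 called 6, of which 5 were lower and 1, Ank2, higher. Without double knockout replicate 3, edgeR called 4 lower and 2 higher, Adam23 and Cntn4. The median log2 fold change of the 49 was -0.08. The lists summed to 6447 to 7214 CPM in wild-type and 5716 to 6704 CPM in double knockout libraries, lowest again in replicate 3. These lists were chosen with earlier results of these data known. The adjusted p-values printed for their genes below are therefore descriptions, not independent tests.

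Among the 6 contactins, the membrane-tethered partners, Cntn2 alone was called. Cntn2, which pairs with Cntnap2 beside the node, had 347.3, 300.7 and 308.1 CPM in wild-type libraries and 225.4, 232.5 and 249.3 CPM in double knockout libraries. All double knockout libraries were lower. It fell by 0.43 on the log2 scale (SE 0.0695), and edgeR gave an adjusted p of 0.01402. The call was lost without wild-type replicate 1 and without double knockout replicate 1 or 2, where edgeR's adjusted p reached 0.0656. Cntn1, the paranodal partner of Cntnap1, was at 34.4 ± 4.90 and 29.1 ± 5.40 CPM (SD, n = 3) and was not called, with a log2 fold change of -0.24, of -0.10 without double knockout replicate 3 and of -0.12 without wild-type replicate 1. Cntn5 had a log2 fold change of -0.63 (SE 0.209) and no overlap, but was called by DESeq2 only, and an antisense gene overlaps it. Cntn4 had a log2 fold change of 0.48 (SE 0.292), and of 0.79 without double knockout replicate 3, where it was called. Cntn4, Cntn5 and, below, Adam23 and Ank2 are named because of their values.

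Of the 26 genes of axonal domains, which include the neurofascin, ankyrin, spectrin, Shaker channel and Lgi genes, 1 was called. This was Lgi2, which encodes a secreted ligand of ADAM22-type receptors. Wild-type libraries had 12.7, 11.7 and 11.9 CPM and double knockout libraries 8.92, 7.77 and 8.10 CPM, with no overlap. It fell by 0.55 on the log2 scale (SE 0.0914), and edgeR gave an adjusted p of 0.0168. Its call was lost with the Y-linked covariate, in each fit that lacked a wild-type library and in that without double knockout replicate 2, where edgeR's adjusted p reached up to 0.0978. Epb41l3, whose product binds the intracellular end of Caspr proteins, was at 56.4 ± 2.25 and 49.9 ± 2.30 CPM (SD, n = 3), a log2 fold change of -0.18 (SE 0.0577) that was not called. The channel gene Kcna1 had 4.59, 2.21 and 2.84 CPM in wild-type libraries and 1.28, 1.23 and 2.67 CPM in double knockout libraries, with overlap and no call. Its log2 fold change was -0.89, moving to -1.34 without double knockout replicate 3, where edgeR's adjusted p was 0.0602, and to -0.54 without wild-type replicate 1. Kcna2 was at 15.2 ± 1.57 and 14.4 ± 2.20 CPM (SD, n = 3), and the sign of its difference changed without wild-type replicate 1 and without double knockout replicate 3. Adam23 was called higher without double knockout replicate 3, with a log2 fold change of 0.33, and was not called with all libraries, at 0.21. Ank2, an ankyrin gene, was at 546.6 ± 43.5 and 648.5 ± 36.0 CPM (SD, n = 3) without overlap, a log2 fold change of 0.25 that was called by DESeq2 only, with an adjusted p of 0.0439. The gene Gm16958 overlaps it on the opposite strand.

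Of the 17 synaptic partners and neurexins, 2 were called. Nrxn3, a presynaptic relative of the family, had 214.5, 193.4 and 205.5 CPM in wild-type libraries and 67.0, 82.1 and 66.7 CPM in double knockout libraries. Its groups were far apart: it fell by 1.51 on the log2 scale (SE 0.0861), and edgeR gave an adjusted p of 5.75e-05. It was called in all 14 alternatives. The gene Gm37980 overlaps it on the opposite strand, so its counts are uncertain to an extent that was not measured. Nrxn2, another neurexin gene, was not called, at a log2 fold change of -0.30. The genes Gm14964 and Slc22a12 overlap Nrxn2 on the opposite strand. Gria1, which encodes an AMPA receptor subunit, had 96.4, 74.5 and 81.5 CPM in wild-type libraries and 56.2, 52.4 and 37.5 CPM in double knockout libraries. It fell by 0.79 on the log2 scale (SE 0.149), and edgeR gave an adjusted p of 0.0304. This call was lost with the Y-linked covariate, without wild-type replicate 1, 2 or 3 and without double knockout replicate 2, and edgeR's adjusted p reached up to 0.113. Nlgn1, a postsynaptic adhesion gene, was at 40.2 ± 2.74 and 32.5 ± 4.68 CPM (SD, n = 3) without overlap, and was not called, with a log2 fold change of -0.31, and of -0.18 without double knockout replicate 3. The gene A830092H15Rik overlaps Nlgn1 on the opposite strand.

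**Figure D5:**
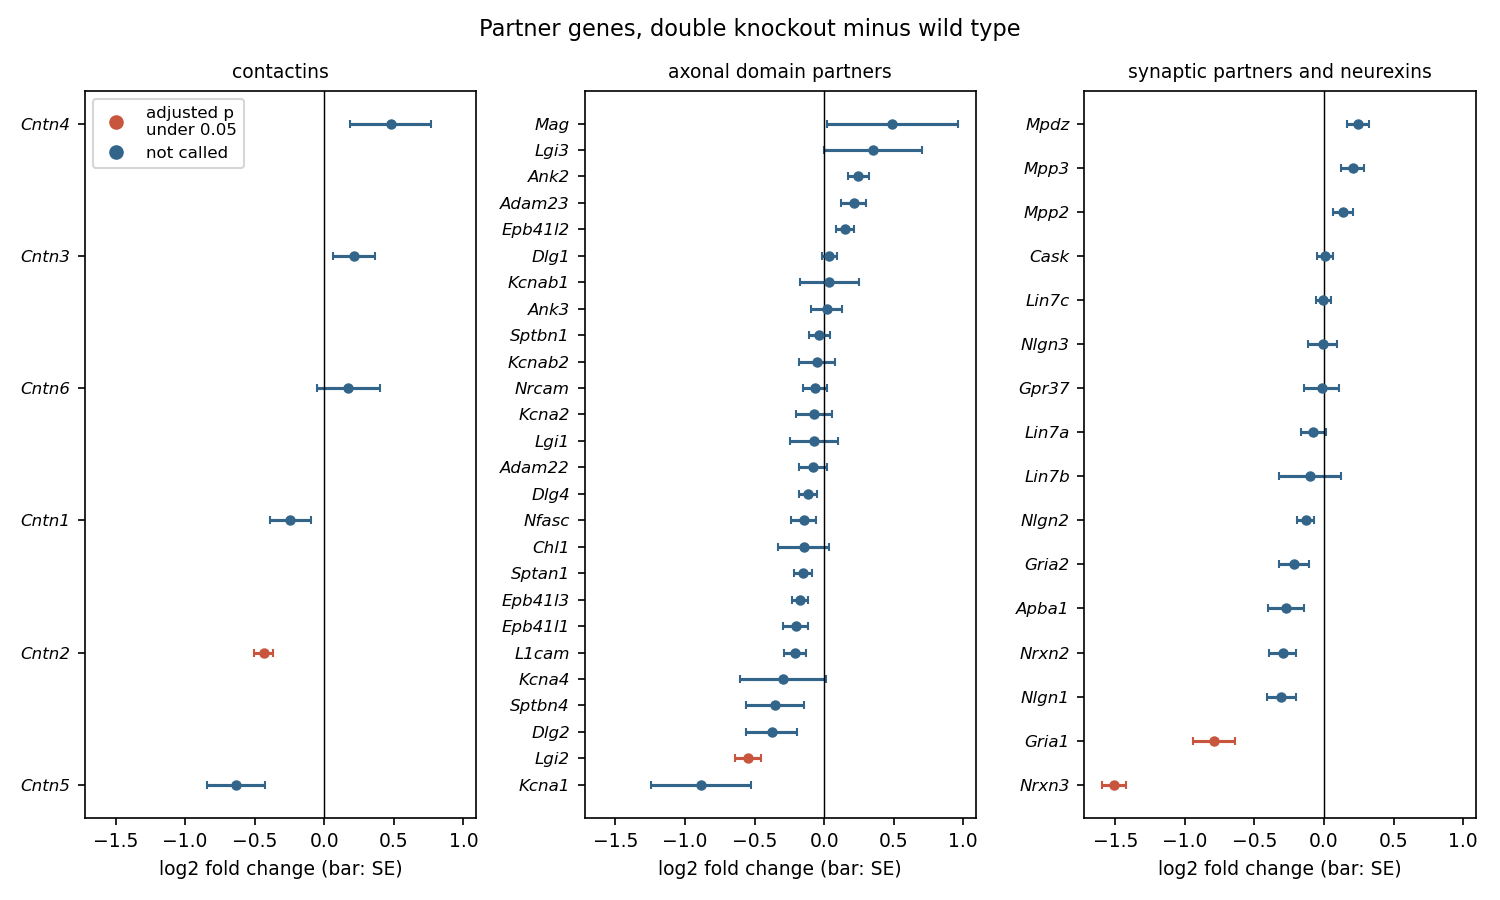
Log2 fold change, double knockout minus wild type, with its SE, for contactins, axonal domain partners, and synaptic partners and neurexins; not every tested gene is drawn. Red marks the 4 genes with an adjusted p under 0.05, all lower in the double knockout, and Nrxn3 has the lowest value at -1.51.

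The nearest protein-coding genes on either side of each member were examined next, using their order in RefSeq's GRCm38.p6 gene table. Of these 14 neighbours, 9 passed the filter, and 0 were called by edgeR's quasi-likelihood test. An unadjusted p under 0.05 was found for 2 of the 9 in that edgeR test, DESeq2 called 1 and limma-voom called 0. The share of all tested genes with such an unadjusted p was not counted, so nothing is read from these 2. Both neighbours of Cntnap3 were essentially silent: Spata31 had no read in any library, and Fam240b was at 0.0173 CPM in a single library. The gene called by DESeq2 was Pdzph1, beside Cntnap5c, which had means of 3.08 ± 0.192 and 4.43 ± 0.444 CPM in wild-type and double knockout libraries (SD, n = 3). Its log2 fold change was 0.52, opposite in sign to that of Cntnap5c.

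The genes with patterns most like those of the members were sought among 13291 other named genes whose mean reached 1 CPM. Predicted gene models, with Gm or Rik names, and genes without a symbol were left out. Likeness was the root mean square difference, over the 6 libraries, between log2 CPM profiles centred on their own mean. The nearest to Cntnap3 was Dlx5, at a difference of 0.292, a homeobox gene that went from 89.3 ± 8.27 to 11.7 ± 0.710 CPM (SD, n = 3). It was followed by Slc32a1, the vesicular GABA transporter gene, at 0.301, and by Aldh1a3, a retinoic acid synthesising enzyme gene, at 0.305. The log2 fold changes of these 3 genes were -2.93, -2.85 and -3.67. The nearest to Cntnap4 were Brinp3, Ipcef1 and Slc7a4, at 0.0519, 0.0527 and 0.0777, with log2 fold changes between -0.45 and -0.43. The nearest to Cntnap2 were Ankrd44, Rin1 and Kctd6, at 0.0312, 0.0347 and 0.0412, with log2 fold changes between -0.15 and -0.09. With 6 libraries in 2 genotypes these likenesses mostly follow the difference between the genotypes.

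Marker lists of other cells were measured beside these values. The 10 cortical excitatory markers summed to 1752 to 1809 CPM in wild-type and 1284 to 1370 CPM in double knockout libraries. Of these 10, 2 were called, Neurod2 and Bcl11b, both lower, and without double knockout replicate 3 there were 4 lower and 1 higher. Bcl11b had the highest level of the list, with wild-type and double knockout means of 779.4 ± 16.9 and 536.9 ± 49.7 CPM (SD, n = 3). The sums lean on this gene, and no change in a cell type is read from them. The 7 oligodendrocyte precursor markers summed to 78.2 to 79.8 CPM and 145.8 to 189.2 CPM, with 6 of 7 called, all higher, and 4 without wild-type replicate 2. Of the 10 ganglionic eminence markers, 6 were called lower and 3 higher, Gsx2, Nkx2-1 and Isl1; without wild-type replicate 1 or 2 only 1 was called higher. Nkx2-1 and Isl1 also stand in the medial and lateral lists. Of the markers of cells derived from the medial and lateral eminences, 6 of 8 and 8 of 10 were called lower, and 1 of each higher. Without wild-type replicate 1 or 2, 4 medial and 6 lateral markers were called lower, and 0 and 1 higher. With the Y-linked covariate, 4 and 7 were called lower, and again 0 and 1 higher. Of the 5 caudal eminence markers, Sp8 was called lower, at 30.4% of the wild type, and Prox1 higher, at 194.6%. Their sums overlapped, with 714.7 to 793.6 CPM in wild-type and 638.1 to 901.4 CPM in double knockout libraries, and without double knockout replicate 3 a total of 2 were called higher and 1 lower. The gene Prox1os overlaps Prox1 on the opposite strand. The vascular, microglial, blood and meningeal sums overlapped between genotypes, and no marker in these 4 lists was absent from all libraries. The part of these shifts in the levels of the Cntnap genes was not tested.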

How the data were processed

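Total RNA from ganglionic eminences was made into stranded, ribosomal RNA-depleted libraries, per the labels' protocols. The authors deposited raw read counts per gene, made with featureCounts on GRCm39, per the submitters' processing notes; the aligner, annotation release and strand setting are not given in the sources used here. A count of 3 per library, taken as the floor, corresponds to 0.0428 to 0.053 CPM and covers counting error only. Genes were filtered with filterByExpr (minimum count 10, minimum total 15), scaled by TMM (trimmed mean of M values) and tested with edgeR 4.0.16 in R 4.3.3 (quasi-likelihood, prior count 0.125, Benjamini-Hochberg adjustment over 23628 genes). SEs are the fitted coefficient over the square root of F.

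Exon lengths, overlaps and transcripts came from GENCODE M21 on GRCm38, another build than the authors', matched by identifier (98.7% of tested genes), and coding sequences were aligned with MAFFT 7.526. No protein sequences were used. Some items are not reported here. The members, lists and tests were chosen with earlier results of these data known. Named genes were all members, called partners and 6 preset ones, called neighbours, and the 3 most similar patterns to Cntnap3, Cntnap2 and Cntnap4. Alternatives were DESeq2 1.42.0 and its size factors, total count scaling, limma-voom (limma 3.58.1), no filter, a mean of 1 CPM, a replicate block, a Y-linked covariate and each library left out. Scaling by pan-neuronal or Gad levels and splits by Xist were added after the data were seen.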

Additional observations from a re-analysis of the deposited data

How the results depend on the processing

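The number of genes called over the whole table was 634, against 1162 with DESeq2, 359 with the Y-linked covariate and 309 to 749 with a library left out. Total count scaling called 390 higher and 256 lower, where TMM called 317 each way. The 2 called members became 1 (Cntnap3) with the Y-linked covariate and with any 1 library left out (range 1 to 1). The 4 called partner genes became 2 with the Y-linked covariate and 1 to 6 with a library left out, and DESeq2 called 1 neighbour gene instead of 0, where leaving out a library gave 0 to 0. The log2 fold change of Cntnap1 reversed to -0.024 with limma-voom, to -0.01 (-0.0057) with the replicate block, and spanned -0.15 to 0.23 with a library left out; that of Kcna2 spanned -0.163 to 0.0535. Fewer libraries enter each fit without a library; otherwise the cause was not tested. Same-numbered libraries had correlations of their deviations from -0.0949 to -0.0040, and 0 of 6 libraries correlated best with their own number. Each same-numbered pair joined a library with high Xist to a library with Y-linked expression. The correlations therefore cannot decide whether the replicate numbers pair the samples. With the replicate block 690 genes (560 of the 634), 2 members, 4 partner genes and 0 neighbours were called, 1 of the 2 neuronal marker calls was lost, 4 rather than 3 ganglionic eminence markers were called higher, and the calls of the other marker and partner lists kept their counts. The 2 neuronal marker calls became 4 with DESeq2, limma-voom or no filter, 1 with total count scaling or a mean of 1 CPM, and 0 with the Y-linked covariate; the 1 progenitor call became 2 with total count scaling, DESeq2 or no filter, the 2 cortical calls 5 with DESeq2 and 4 with no filter, and the 3 ganglionic eminence markers called higher 1 with the Y-linked covariate. At 42 to 78 reads, the double knockout counts of Cntnap5c limit its precision.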
